A study of Rattus norvegicus with 6 samples.

Results

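The Notch receptors Notch1, Notch2, Notch3 and Notch4, the ligands Jag1 and Dll4, and the HES/HEY genes Hes1, Hey1, Hey2 and Heyl were examined in rat atrial fibroblasts by mRNA sequencing. They were the rows of the gene count table that carried these 10 symbols, 10 of 40154 genes listed, and 9 of them passed the filter on low counts (all but Dll4). The fibroblasts came from the atria of Sprague-Dawley rats 1 to 3 days old and were separated from myocytes by 1.5 h of preplating. They were grown in 10% fetal bovine serum and collected 24 h after transfection with a control small interfering RNA (si-NC, 3 libraries) or one against Gpd1l, glycerol-3-phosphate dehydrogenase 1-like (si-GPD1L, 3 libraries). All 6 samples also carried the treatment label "Atrial differentiation", which the labels do not explain. Both groups were transfected, so no untransfected cells were compared. Whether the digit in a sample title stands for a separate culture or a separate siRNA is not stated, nor is the number of animals behind a library, so the p-values measure only the spread between these libraries, which may be technical.

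Notch signalling runs between neighbouring cells. A ligand of the Jagged or Delta-like family on one cell binds a Notch receptor on the next, the receptor is cut by an ADAM protease and then by γ-secretase, and the freed intracellular part enters the nucleus. There it joins the DNA-binding protein RBPJ and a Mastermind coactivator and turns on target genes, among which the HES and HEY families encode transcriptional repressors. In the heart and its vessels, Notch4 and Dll4 are best known from endothelial cells, Notch3 from smooth muscle cells and pericytes, and Jag1 and Notch2 from several mesenchymal cell types.

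Several facts of the libraries touch the values below. The 6 libraries held 16892255 to 20149732 counted reads each. Gpd1l, the targeted gene, was read 265, 314 and 321 times under si-NC against 202, 229 and 303 times under si-GPD1L, a log2 fold change of -0.31 (SE 0.15) that did not pass the test (edgeR quasi-likelihood test, Benjamini-Hochberg adjusted p = 0.234). After normalization the library labelled si-GPD1L replicate 3 lay within the si-NC range for this gene, so group names below follow the labels. The log2 fold change of Gpd1l was -0.50 without that library (adjusted p = 0.0733) and -0.21 without si-GPD1L replicate 2 (adjusted p = 0.579). The si-NC replicate 1 library stood apart by gene length: its median log2 deviation from the mean of the 6 libraries was 0.19 in the bin of the shortest genes (59 to 1131 bases) and -0.18 in that of the longest (7542 bases and more), where the other 5 libraries lay between -0.021 and 0.053. Notch1, Notch2, Notch3 and Notch4 are long, so their values are also given with this trend removed, an alternative added after the data were seen. Fibroblast markers summed to 34250 to 44336 TPM, a level scaled by gene length and depth, with si-NC. With si-GPD1L they summed to between 41625 and 44816 TPM. Most of that sum came from Col1a1 (mean 16846 TPM in si-NC and 21126 TPM in si-GPD1L) and Col3a1 (14768 and 13005 TPM). It therefore says little about the other fibroblast markers.

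Compared per length, Notch3 was the highest of the 10 genes, at 132 ± 23.6 TPM in si-NC (SD, n = 3). It ranked 1152 of the 40154 genes listed, 15226 of which had 0 reads in every library. Hes1 followed with 93.5 ± 2.65 TPM and Jag1 with 76.6 ± 7.50 TPM. Heyl, at 44.8 ± 6.26 TPM, and Notch2, at 40.5 ± 10.2 TPM, overlapped in their libraries. Hey2 reached 11.0 ± 0.887 TPM and Notch1 6.50 ± 1.50 TPM, both under the median of the genes tested, 14.0 TPM. Hey1 (1.19 ± 0.408 TPM) and Notch4 (0.739 ± 0.0852 TPM) were low and overlapped, and Dll4 was the lowest at 0.0957 ± 0.0472 TPM. The fibroblast cultures thus held Notch3, Notch2, Jag1, Hes1 and Heyl RNA well above the median gene, and the genes best known from endothelium far under it. In si-GPD1L the order was the same except that Notch2 (56.8 ± 3.62 TPM) and Heyl (54.5 ± 2.39 TPM) changed places, and these libraries overlapped too, as did those of Hey2 (10.4 ± 1.43 TPM) and Notch1 (9.98 ± 0.663 TPM).

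**Figure D1:**
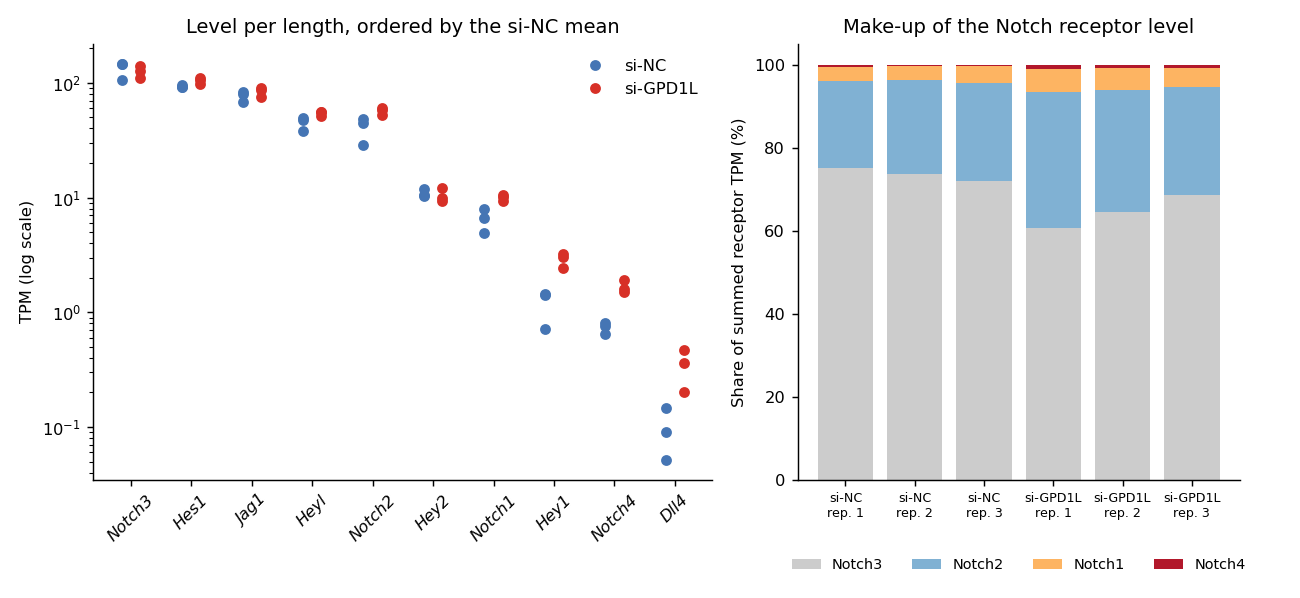
Left, TPM on a log scale for each of the 10 genes, ordered by the si-NC mean, with 1 point per library. Right, the percent of the summed TPM of Notch1 to Notch4 held by each receptor in each library. Notch3 tops the order at 132 TPM in si-NC, and its part of the receptor total is 72.0% to 75.2% in si-NC libraries and 60.6% to 68.7% under si-GPD1L.

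Between the groups, 2 of the 9 genes tested rose in si-GPD1L (Notch1 and Notch4) and none fell at an adjusted p under 0.05. An unadjusted p under 0.05 was found for 5 of the 9, against 3324 of the 14852 genes tested. Over all 14852 genes tested, 6.36% were called in either direction, 4.03% were called higher, and 1.62% were called with a log2 fold change beyond 1 in either direction, as Notch4 was. The libraries of the 2 groups did not overlap for 5 of the 9 genes, against 29.0% of all genes tested. Both counts of 5 include Hey1, which exceeded the low-count filter's minimum in 2 si-NC and 3 si-GPD1L libraries. The filter asks for 3 libraries, so Hey1 passed it only with the group in which it was higher. The median log2 fold change of the 9 was 0.20, beside -0.0049 for all genes tested. It was 0.083 for the 1788 genes of 7000 bases or more, a length that Notch1, Notch2 and Notch3 exceed. In these bulk libraries a change in the number of cells of a type and a change in RNA per cell cannot be told apart.

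**Figure D2:**
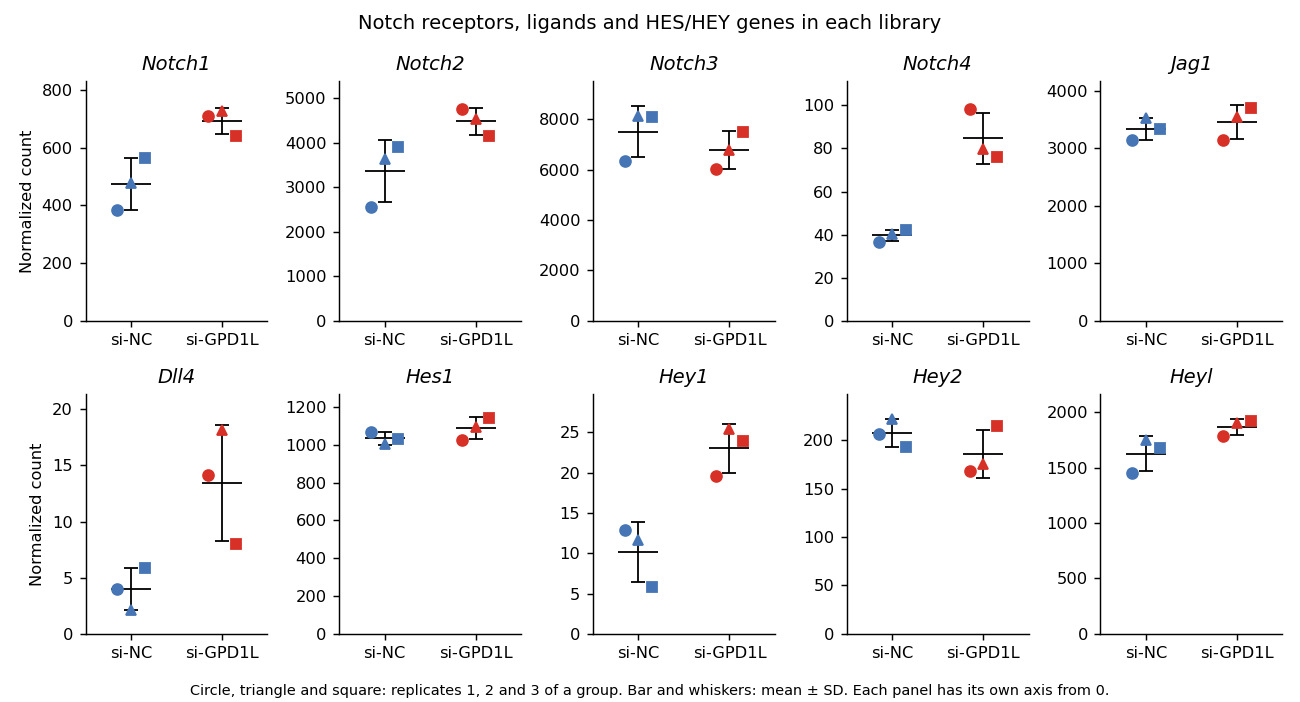
Normalized count (reads scaled by library size and TMM factor, linear axis from 0) of each of the 10 genes in the 3 si-NC and 3 si-GPD1L libraries, with 1 point per library and the group mean ± SD. For Notch4 the si-NC libraries lie between 36.6 and 42.0 and the si-GPD1L libraries between 75.9 and 98.1, while for Jag1 and Hes1 the groups overlap.

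Notch4 (NCBI gene 406162, chr20:4329794-4353868, coordinates as deposited, with rn6 the build named in the submitters' notes) encodes the receptor best known from endothelial cells. Its raw counts were 37, 38 and 43 in si-NC and 90, 88 and 76 in si-GPD1L. All si-GPD1L libraries lay above all si-NC libraries. The normalized count rose from 39.6 ± 2.75 to 84.7 ± 11.8 (SD, n = 3 each), 2.14-fold, with a log2 fold change of 1.09 (SE 0.19, 95% interval 0.67 to 1.51, adjusted p = 0.00526, edgeR quasi-likelihood test). The exact permutation test of the normalized counts (two-sided) gave p = 0.10, the smallest that 3 against 3 libraries can give. The adjusted p stayed under 0.05 in 14 of 14 alternatives, the highest being 0.0383, and the log2 fold change was 1.04 with the length trend removed.

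Notch1 (NCBI gene 25496, chr3:3905562-3951015), a receptor of wide expression, had 389, 451 and 578 reads in si-NC and 652, 799 and 641 in si-GPD1L. Again the groups did not overlap, and si-NC replicate 1 was the lowest library. The normalized count rose from 475 ± 89.8 to 692 ± 46.1, 1.46-fold, a log2 fold change of 0.54 (SE 0.12, 95% interval 0.28 to 0.81, adjusted p = 0.0216). The interval spans an increase of 21.2% to 75.0%. The call was lost without si-NC replicate 2 (adjusted p = 0.0706), without si-GPD1L replicate 1 (adjusted p = 0.108) and without si-GPD1L replicate 2 (adjusted p = 0.129), with log2 fold changes of 0.54, 0.52 and 0.50. Without si-NC replicate 1 the log2 fold change was 0.41 (adjusted p = 0.00424), and with the length trend removed it was 0.46 (adjusted p = 0.00987).

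Notch2 (NCBI gene 29492, chr2:200187184-200320403) was the receptor with the second highest level. Its counts were 2596, 3431 and 4003 in si-NC and 4363, 5005 and 4171 in si-GPD1L, without overlap after normalization (3368 ± 708 and 4489 ± 301). The log2 fold change of 0.41 (SE 0.13, 95% interval 0.14 to 0.69) did not pass the test over all genes (adjusted p = 0.0726). The si-NC replicate 1 library was the low one here, at a normalized 2566. The log2 fold change was 0.25 without it (adjusted p = 0.0119) and 0.53 without si-NC replicate 3 (adjusted p = 0.0198). With the length trend removed it was 0.33 (adjusted p = 0.0423). DESeq2 (adjusted p = 0.0184) and the edgeR exact test (adjusted p = 0.0285) also called Notch2. The edgeR quasi-likelihood test did not call it without si-NC replicate 2 (adjusted p = 0.111) or without si-GPD1L replicate 1 (adjusted p = 0.253). Nor was it called without si-GPD1L replicate 2 (adjusted p = 0.243) or without si-GPD1L replicate 3 (adjusted p = 0.125). Of 14 alternatives, 6 called Notch2.

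Notch3 (NCBI gene 56761, chr7:14138495-14189688), the receptor of smooth muscle cells and pericytes, was the only receptor with a log2 fold change below 0. Its counts were 6404, 7677 and 8274 in si-NC and 5511, 7469 and 7521 in si-GPD1L, and the groups overlapped. The normalized counts were 7510 ± 1021 and 6768 ± 749, and the log2 fold change of -0.15 (SE 0.11, adjusted p = 0.444) had an interval from -23.4% to 6.04%. Without si-NC replicate 1 the log2 fold change was -0.26 and passed the test (adjusted p = 0.0212). Leaving out si-GPD1L replicate 1 gave -0.073, si-GPD1L replicate 3 gave -0.23, si-NC replicate 2 gave -0.091 and si-NC replicate 3 gave -0.095, none of which passed. With the length trend removed it was -0.20 (adjusted p = 0.168).

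The sum of the 4 receptors overlapped between the groups, at 139, 196 and 203 TPM in si-NC and 183, 196 and 203 TPM in si-GPD1L (exact permutation test, two-sided, p = 0.90). Its make-up by library was as follows. Notch3 held 75.2%, 73.8% and 72.0% of the receptor TPM in si-NC and 60.6%, 64.4% and 68.7% in si-GPD1L. Notch2 held 20.8%, 22.5% and 23.7% in si-NC and 32.7%, 29.4% and 26.0% in si-GPD1L. The groups did not overlap for either receptor, with a mean difference of 7.05 percentage points for Notch2 and -9.05 for Notch3. Notch1 held 3.61% ± 0.274 and 5.16% ± 0.539, and Notch4 held 0.416% ± 0.0402 and 0.866% ± 0.165. Each of the 4 exact p-values was 0.10, the smallest possible here, so none could pass 0.05, and shares of 1 sum are not independent of each other.

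**Figure D3:**
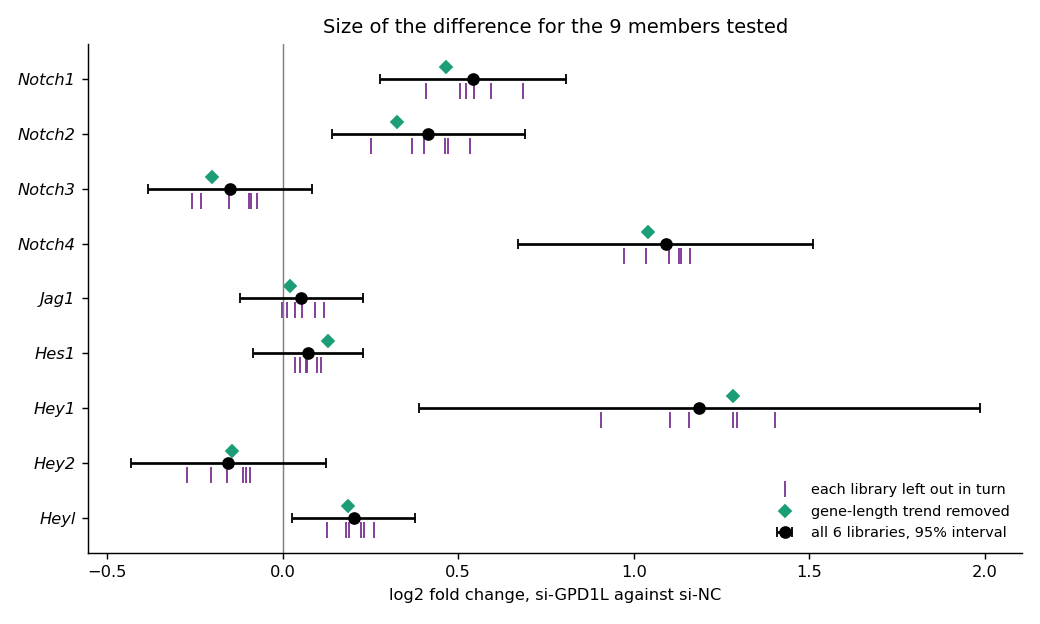
log2 fold change, si-GPD1L against si-NC, of the 9 genes tested. Black points with bars show the fit on all 6 libraries with its 95% interval, purple ticks show the fits that leave out 1 library each, and green diamonds the fit with the gene-length trend removed. Notch4 stays between 0.97 and 1.16 under the alternatives, and the Jag1 interval spans 0.

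The ligands split by level. Jag1 (NCBI gene 29146, chr3:130079361-130114781), which activates Notch receptors on adjoining cells, had 3179, 3331 and 3424 reads in si-NC and 2874, 3902 and 3713 in si-GPD1L. The groups overlapped, and the log2 fold change of 0.054 (SE 0.081, adjusted p = 0.747) had an interval from -8.07% to 17.2%. Of the summed TPM of Jag1, Jag2, Dll1, Dll3 and Dll4, Jag1 held between 97.9% and 98.7% in si-NC and between 96.0% and 97.9% in si-GPD1L.

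Dll4 (NCBI gene 311332, chr3:111135011-111146746), the Delta-like ligand of arterial and sprouting endothelium, had 4, 2 and 6 reads in si-NC and 13, 20 and 8 in si-GPD1L. Every si-GPD1L library lay above every si-NC library, but 0 of 3 si-NC and 2 of 3 si-GPD1L libraries exceeded the filter's minimum of 0.541 CPM, reads scaled to library size, so the gene was not tested. The mean normalized counts were 3.98 ± 1.87 and 13.4 ± 5.13, a ratio of 3.38 that rests on few reads. Fitted without the filter, among 24928 genes, the log2 fold change was 1.72 (SE 0.61, adjusted p = 0.0574). That fit called 1929 genes, against 945 in the main fit, so its adjusted p-values are not comparable with the main ones. The exact permutation p was 0.10.

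None of the 4 target genes passed the edgeR quasi-likelihood test in the main fit, or DESeq2. In the main fit 2 of them (Hey1 and Heyl) had an unadjusted p under 0.05. Among the 4, 1 (Hey1) passed the edgeR exact test and the quasi-likelihood test with the length trend removed. Hes1 (NCBI gene 29577, chr11:74312837-74315249), the most abundant of them and the classical readout of Notch activity, had 1081, 948 and 1055 reads in si-NC and 940, 1206 and 1142 in si-GPD1L. The groups overlapped, with a log2 fold change of 0.073 (SE 0.072, adjusted p = 0.603) and an interval from -5.68% to 17.2%. It was 0.034 without si-GPD1L replicate 3, 0.11 without si-GPD1L replicate 1 and 0.13 with the length trend removed. Hey2 (NCBI gene 155430, chr1:29191170-29201257), a repressor with roles in ventricular and arterial development, had 209, 210 and 198 reads and then 154, 193 and 215. These overlapped too, with a log2 fold change of -0.16 (SE 0.13, adjusted p = 0.511) and an interval from -25.9% to 8.83%. The log2 fold change of Hey2 was -0.27 without si-GPD1L replicate 3 (adjusted p = 0.303) and -0.092 without si-GPD1L replicate 1 (adjusted p = 0.802).

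Hey1 (NCBI gene 155437, chr2:95320147-95322701), a close relative of Hey2, had 13, 11 and 6 reads in si-NC and 18, 28 and 24 in si-GPD1L. The groups did not overlap, but the counts were low. The normalized count was 10.1 ± 3.74 and 23.0 ± 3.02, and the log2 fold change of 1.19 (SE 0.37, 95% interval 0.39 to 1.99) did not pass the test (adjusted p = 0.0767). It passed in 2 of 13 alternatives, the edgeR exact test (adjusted p = 0.0185) and the fit with the length trend removed (adjusted p = 0.0462), and with adjusted p up to 0.267 in the others it did not. Only 2 of the 3 si-NC libraries exceeded the filter's minimum, and all 3 si-GPD1L libraries did. Heyl (NCBI gene 313575, chr5:140923914-140940905), the HEY gene most abundant in these cells, had 1465, 1657 and 1717 reads and then 1640, 2093 and 1925. Its normalized groups were apart, but the log2 fold change of 0.20 (SE 0.081, adjusted p = 0.160) did not pass the test in the fit on all libraries or in any of 14 alternatives, and was 0.13 without si-NC replicate 1 (adjusted p = 0.188).

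As shares of the summed TPM of these 4 targets, Hes1 held 62.2% ± 2.62 in si-NC and 60.6% ± 0.0296 in si-GPD1L (exact permutation test, two-sided, p = 0.40), and Heyl 29.7% ± 2.62 and 31.7% ± 0.570 (exact p = 0.20). The share of Hey2 was 7.29% ± 0.462 and 6.04% ± 0.545, and that of Hey1 0.799% ± 0.296 and 1.68% ± 0.162, each with the smallest possible exact p of 0.10.

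The promoters were searched for the letters of the RBPJ motif. RefSeq gives, on build GRCr8, the 250 bases before and 50 after the start of 33469 genes, and 8 of the 10 members matched (not Dll4 and Hey1). The letters searched on both strands were TGGGAA, its core, and the longer GTGGGAA, which contains it. TGGGAA was present in 25.7% of all promoters and in 4 of the 8, and GTGGGAA in 6.29% and in 2 of the 8, Hes1 and Hey2. A match is a description of letters and no evidence of binding. The stretches below are shown because Hes1 and Hey2 held the longer motif, because Notch4 rose, and because Notch3 was the other member with the core and the receptor with the highest level. Each is written in the direction of its gene, 5′ to 3′, with the motif in capitals.
Hes1: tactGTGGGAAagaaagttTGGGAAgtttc
Hey2: tgggctgcggcGTGGGAAagagcctccag
Hey2: gaaagccagacgTTCCCAgggaggcgggga
Notch4: tactccgttctcTTCCCAgggaggcccctc
Notch3: tgcccggagcccTGGGAAag
The Hes1 stretch, from the promoter at chr11:84212996-84213295 (minus strand), holds both motif copies, 124 and 109 bases before the start with 8 bases between them. The Hey2 copies lie 61 and 175 bases before the start at chr1:28640850-28641149 (plus strand), the second on the opposite strand. The Notch4 copy lies 93 bases before the start at chr20:4189023-4189322 (minus strand), on the opposite strand. A second Notch4 copy, not shown, lies 246 bases before the start, also on the opposite strand. RefSeq places Notch4 on the minus strand of GRCr8, whereas the deposited table gives the plus strand, and Notch4 was the only one of the 8 whose strand differed between them. The Notch3 copy lies 42 bases after the start.

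At the transcript level, 14 rows of the deposited transcript table belonged to the 10 genes, 12 were tested, and 4 were called, where 5.89% of 37822 transcripts tested were called in either direction. All 3 Notch4 transcripts rose, and the shortest, of 4843 bases, went from 14, 18 and 22 reads to 46, 53 and 41 (log2 fold change 1.33, SE 0.27, adjusted p = 0.0115). The other 2 had log2 fold changes of 1.13 (adjusted p = 0.00627) and 1.12 (adjusted p = 0.00511). They share reads: the si-GPD1L replicate 1 library had 90 reads for the gene and 88, 88 and 46 for its transcripts, so these are not separate measurements. The single Notch1 transcript had a log2 fold change of 0.52 (adjusted p = 0.0189). The 2 Hey1 transcripts had log2 fold changes of 1.21 (adjusted p = 0.0904) and 1.17 (adjusted p = 0.0825), and the 2 Dll4 transcripts were not tested. Without si-GPD1L replicate 1 or si-GPD1L replicate 2, 2 of the transcripts were called.

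Of 59 other genes of the Notch pathway, in 8 roles, 52 were tested, 1 was higher and 1 lower, 3.85% against 6.36% of all genes tested in either direction. Their median log2 fold change was 0.032, with 29 above 0 and 23 below. Of the 52, 15 had an unadjusted p under 0.05, beside 3324 of all 14852 genes tested. DESeq2 and the edgeR exact test each called 3. The higher gene was Dtx3l, from the list of inhibitors and turnover genes, which rose from a normalized count of 133 ± 5.82 to one of 941 ± 76.6 (log2 fold change 2.83, SE 0.10, adjusted p = 7.65e-10). DTX3L is an E3 ligase of the Deltex family that pairs with PARP9 and is best known as interferon-inducible rather than as a Notch regulator. The lower gene was Psenen, a subunit of γ-secretase, which fell from 487 ± 16.0 to 363 ± 6.37 (log2 fold change -0.43, SE 0.085, adjusted p = 0.0111), and with the length trend removed it was -0.27 (adjusted p = 0.0760). Its call was also lost without si-GPD1L replicate 1 (adjusted p = 0.0649) and without si-GPD1L replicate 2 (adjusted p = 0.0651). The pathway count of 2 became 6 without si-NC replicate 1, 8 without si-NC replicate 3, and 1 without either of those si-GPD1L libraries.

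In the other 6 roles no gene passed the edgeR quasi-likelihood test in the main fit. Rbpj, the DNA-binding partner, went from 2227 ± 52.5 to 2053 ± 149 (log2 fold change -0.12, adjusted p = 0.368). The smallest p among the nuclear coactivators was that of Kat2a (log2 fold change 0.26, adjusted p = 0.0670). Among the corepressors it was that of Tle1 (0.40, adjusted p = 0.104), among glycosylation genes Mfng (0.55, adjusted p = 0.575), among ligand ubiquitination genes Neurl1b (-0.52, adjusted p = 0.185), and among other HES genes Hes6 (-0.25, adjusted p = 0.178). Jag2, the second Jagged ligand, had 41.1 ± 8.36 and 53.2 ± 10.7 normalized counts (log2 fold change 0.36, adjusted p = 0.400). Dll1, another Delta-like ligand, was not tested. It had 6, 1 and 1 reads in si-NC and 11, 18 and 8 in si-GPD1L, and is named here after its values were seen. Without the filter its log2 fold change was 2.13 (SE 0.69, adjusted p = 0.0313). The fit without the filter called 1929 genes against 945 in the main fit, so this value does not count as a call here.

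**Figure D4:**
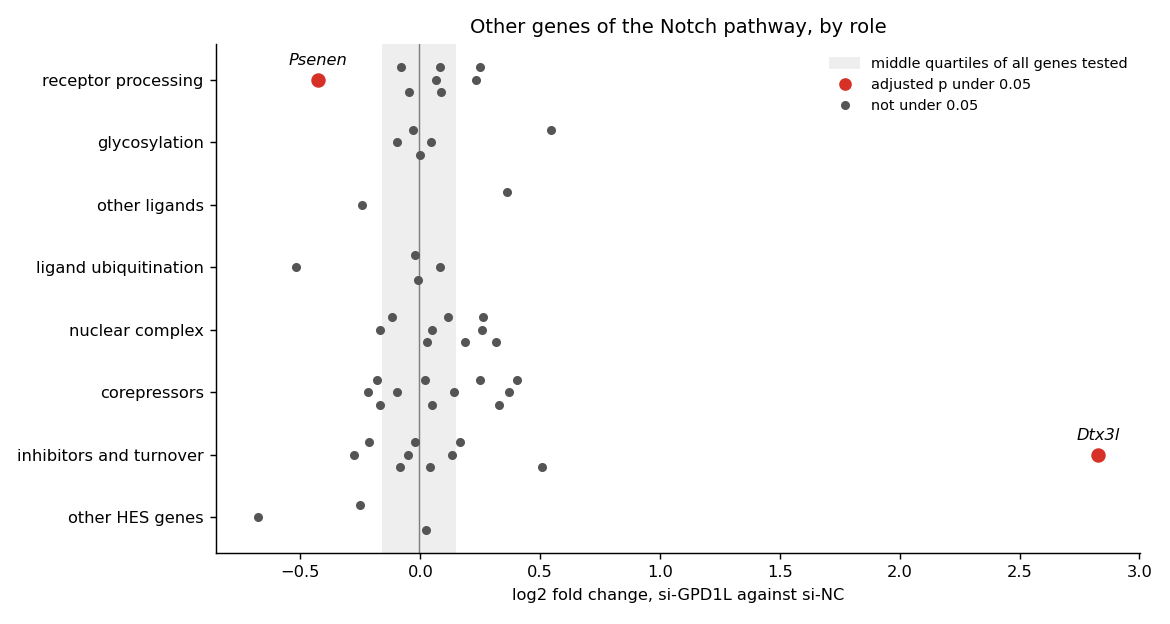
log2 fold change, si-GPD1L against si-NC, of the 52 other Notch pathway genes tested, in rows by role, with 1 point per gene and red marking an adjusted p under 0.05. The grey band spans the middle quartiles of all genes tested. Dtx3l stands alone at 2.83, and Psenen is the other red point at -0.43.

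Markers of endothelial cells moved in the direction of the Notch4 and Notch1 calls and of the Hey1 and Dll4 differences. Hey2, which has a role in arterial development, had a log2 fold change of the other sign (-0.16) and was not called. Of 14 endothelial markers, 12 were tested, 5 rose, none fell, and all 12 had a log2 fold change above 0, with a median of 0.69. Over all genes tested, 4.03% were called higher and 49.1% had a log2 fold change above 0. Plvap, a protein of endothelial diaphragms, rose from a normalized count of 40.2 ± 2.73 to one of 110 ± 14.0 (log2 fold change 1.44, adjusted p = 3.51e-04), and Cdh5, the cadherin of endothelial junctions, had a log2 fold change of 1.07 (adjusted p = 0.00337). Erg, an endothelial transcription factor, had one of 1.00 (adjusted p = 0.0152). The other 2 that rose, named after their values were seen, were Pecam1 and Tie1. The summed level of the list was 44.2, 51.2 and 57.3 TPM in si-NC and 72.3, 79.6 and 75.7 TPM in si-GPD1L, and Robo4 was at 0 in every library. Of these markers, 2 were called without si-GPD1L replicate 2, 3 without si-NC replicate 2, si-GPD1L replicate 1 or si-GPD1L replicate 3, 5 without si-NC replicate 1 and 7 without si-NC replicate 3. The part of these cells in the Notch4, Notch1, Hey1, Hey2 and Dll4 values was not tested.

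Markers of mural cells, in which Notch3 is known, had calls in both directions. Of 10 tested, 2 rose (Cspg4, log2 fold change 0.80, and Mcam, 0.27) and 1 fell (Des, -0.35). The log2 fold change was below 0 for 8 of the 10, with a median of -0.16. Over all 14852 genes tested, 599 rose, 346 fell and 7558 had a log2 fold change below 0. The summed level of the mural markers was 8605 to 9231 TPM for si-NC against 8418 to 8877 TPM for si-GPD1L. Of the 10 fibroblast markers, none rose and 2 fell, Lum (log2 fold change -0.77, adjusted p = 0.00580) and Dcn (-0.66, adjusted p = 0.0129). Among these 10, 8 had a log2 fold change below 0, with a median of -0.12. None of 8 cardiomyocyte and 10 macrophage markers passed the edgeR quasi-likelihood test in the main fit, with 3 and 1 at an unadjusted p under 0.05. Their summed levels were 2893 to 3061 against 2693 to 2864 TPM and 206 to 236 against 190 to 282 TPM.

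**Figure D5:**
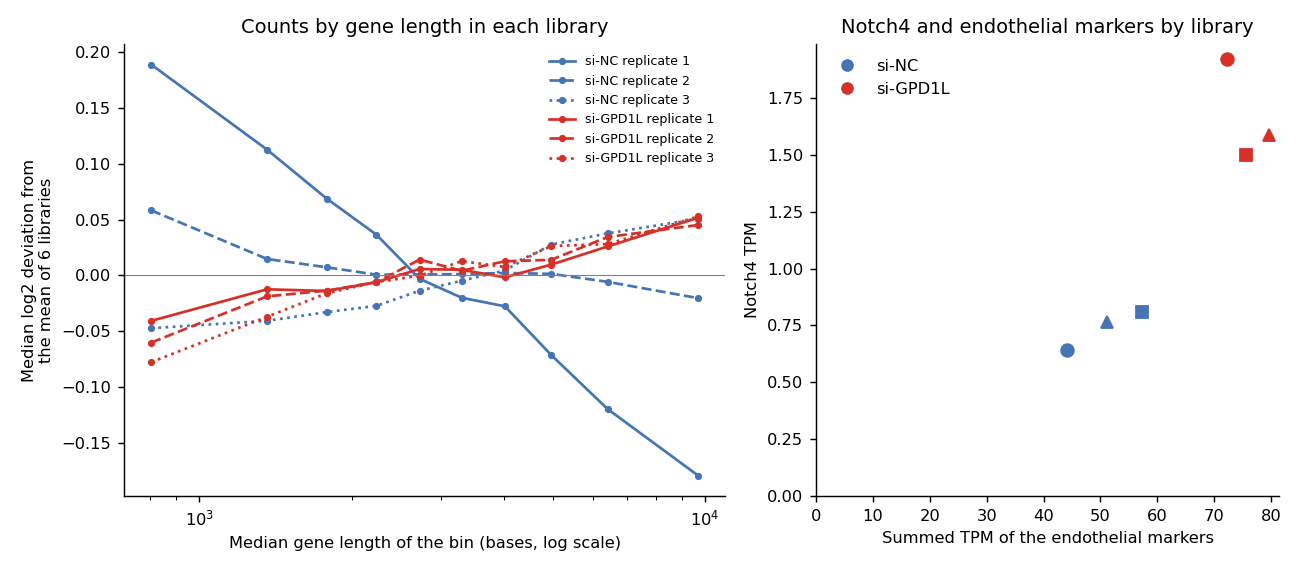
Left, median log2 deviation of each library from the mean of the 6, in bins of genes by length (log axis in bases). Right, TPM of Notch4 against the summed TPM of the 14 endothelial markers, 1 point per library. The si-NC replicate 1 line runs from 0.19 in the shortest bin to -0.18 in the longest, and on the right the si-GPD1L libraries (72.3 to 79.6 TPM of markers) lie above the si-NC libraries (44.2 to 57.3 TPM) on both axes.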

How the data were processed

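PolyA-selected RNA of 6 rat atrial fibroblast samples was sequenced. Of the authors' processing, the submitters' notes name HISAT2 2.1.0, HTSeq 0.12.4, bcl2fastq and the rn6 build without their roles. The strand setting is not given in the sources used here, so reads of overlapping antisense genes cannot be told apart. The authors deposited raw counts and TPM values per gene and per transcript. TPM is scaled by gene length and depth. Tables of the authors' own comparisons and term enrichments were deposited too and were not used.

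Counts were tested with edgeR 4.0.16 in R 4.3.3 (filterByExpr, at least 0.541 CPM in 3 libraries, TMM, quasi-likelihood test, Benjamini-Hochberg adjustment over all 14852 genes tested, threshold 0.05), as si-GPD1L against si-NC. Normalized counts are reads scaled by library size and TMM factor to the mean library. Shares and summed TPM were tested by exact permutation, two-sided. Figures were drawn with matplotlib 3.10.9. Alternatives were 2 other normalizations, 2 filters, DESeq2 1.42.0, the edgeR exact test, a replicate block, leaving out each library, and a gene-length trend removed through offsets. In simulated counts, 56 of 67 genes changed 1.5-fold and 67 of 67 changed 2-fold were called for this comparison, among 14858 genes. Only genes above a minimum mean count were changed, every gene had the same assumed spread between libraries, and no gene-length trend was put in. The simulation therefore gives no recovery rate for genes of few reads, such as Hey1 and Dll4. Every member is described. Of the other pathway genes, those with adjusted p under 0.05 and the smallest p per role are named, and of marker lists at most 3 genes, besides which others are named where a count is small. The members and lists were chosen with earlier results of these data known.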

Additional observations from a re-analysis of the deposited data

How the results depend on the processing

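Of the 14 alternatives, Notch4 passed in 14, Notch1 in 11, Notch2 in 6 and Notch3 in 1. Among the 14 is the fit without the filter, which called Notch1, Notch2 and Notch4. Its adjusted p-values are not comparable with the main ones. Hey1 passed in 2 of 13, since a minimum of 10 counts in every library removed it, while Jag1, Hes1, Hey2 and Heyl passed in none. Directions held except for Jag1, at -0.00071 without si-GPD1L replicate 3 (leave-one-out range -0.00071 to 0.12). The count of genes called, 945, was 1929 without the filter and 1528 by the exact test, and 361 (without si-GPD1L replicate 2) to 1531 (without si-NC replicate 1) on leaving out 1 library. The members called, 2, became 4 by the exact test and 4 with the length trend removed, both times Notch1, Notch2, Notch4 and Hey1, and 1 to 4 on leaving out 1 library: Notch4 alone without si-NC replicate 2, si-GPD1L replicate 1 or si-GPD1L replicate 2, and Notch1, Notch2, Notch3 and Notch4 without si-NC replicate 1. The other pathway genes called, 2, became 10 without the filter and 1 to 8 on leaving out 1 library. Endothelial markers called ranged from 2 to 7 and member transcripts from 2 to 6 on leaving out 1 library. The cause of these shifts was not tested. Same-numbered libraries did not deviate together (correlations across genes of -0.012, -0.0059 and 0.043), so the numbers were not taken as pairs, and with the replicate block 921 genes and 2 members were called, which changed no member's call. Depth limits Dll4, Hey1 and Dll1, with at most 28 reads in any library.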
